A study of Homo sapiens with 8 samples.

Results

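Fibroblast growth factor (FGF) ligands and their receptors were followed by long-read RNA sequencing in human pluripotent stem cells (hPSC) and in ectoderm, endoderm and mesoderm cells made from them in culture. The genes described are 6 ligands, FGF2, FGF4, FGF8, FGF13, FGF17 and FGF19, and the 4 receptor tyrosine kinases FGFR1, FGFR2, FGFR3 and FGFR4. They were chosen by name from the authors' combined transcript assembly, among the rows for which the assembly also gives that gene name, and are 10 of 20096 named genes. They held 84 assembled transcripts and 5998 reads. Of the 84, 27 carried the intron chain of a reference transcript and 57 did not.

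FGFs that are secreted bind a receptor on the cell surface together with heparan sulfate or a Klotho protein, and the paired receptors then phosphorylate each other. The docking protein FRS2 carries the signal to RAS and the MAP kinases, which raise transcription of ETV factors and of the inhibitors of the Sprouty and DUSP families. Human pluripotent cells are grown with FGF2 protein, and FGF8, FGF17 and FGF4 are known from the gastrulating embryo.

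The starting cells were H1, a long-established line of human embryonic stem cells, and RNA was read on a PacBio instrument. The hPSC group was kept in mTeSR1, a medium that contains FGF2 protein, on Matrigel. The 3 layers were collected after 5 days. Ectoderm cells were kept in DMEM/F12 with 15% serum replacement and the inhibitors A83-01, PNU-74654 and Dorsomorphin at 2 µM each. Endoderm cells were kept in RPMI with 0.5% serum, WNT3A and Activin A at 100 ng/ml. Mesoderm cells were kept in DMEM/F12 with 0.5% serum, VEGF and BMP4 at 100 ng/ml each and FGF2 protein (bFGF) at 10 ng/ml, with Activin A at 100 ng/ml on the opening day only. FGF2 protein was therefore added by hand in mesoderm and by the stock medium in hPSC, and is not named for the other layers. Each group had 2 repeats, and nothing in the labels says that they were separate cultures, so p-values measure the spread between these samples, which may be technical.

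Total counts were from 503840 to 1180888 reads per library, the ectoderm libraries being the deepest, and a count of 0 allowed up to 3 reads, or from 2.54 to 5.95 reads per 1e+06 (CPM). These limits and the intervals given below cover counting error only. The mean length of the assembled transcript behind a read was 4406 and 4650 nt in ectoderm, 3765 and 3840 nt in mesoderm, and from 2975 to 3298 nt in the other libraries. The hPSC repeats were the least alike, with a correlation of 0.864 across genes against 0.939 to 0.965 in the other groups, and SOX2 stood at 137 CPM in one and 8.90 CPM in the other. Endoderm markers were all found in endoderm, and 7 of 8 ectoderm markers in ectoderm, where SOX1 was at 0. OTX2, listed as an ectoderm marker, was higher in endoderm (412 and 406 CPM) than in ectoderm (153 and 134 CPM). Pluripotent markers summed to 3992 and 3811 CPM in hPSC and 2114 and 1805 CPM in endoderm. They summed to 1346 and 1809 CPM in ectoderm and 378 and 343 CPM in mesoderm. Most of the sum was LIN28A (879 and 1280 CPM) in ectoderm, and LIN28A (835 and 761 CPM) with TDGF1 (772 and 599 CPM) in endoderm. POU5F1 stood at 716 and 626 CPM in hPSC, 104 and 118 CPM in endoderm, and 4.23 and 16.5 CPM in ectoderm. NANOG stood at 152 and 230 CPM in hPSC and 157 and 111 CPM in endoderm, where SOX2 had no read. The libraries labelled mesoderm held 5 of 8 mesoderm markers, against 7 in endoderm and 4 each in hPSC and ectoderm. The markers summed to 525 and 582 CPM in mesoderm, against 8.27 to 119 CPM in the other groups. Of the 3 that could be tested, 1 was higher and 1 was lower in mesoderm than in hPSC. The mesoderm libraries had no read of the mesoderm markers MIXL1, MESP1 and FOXF1. TBXT had 1 read in these libraries, and HAND1, which amnion also expresses, was present, as were TBX6, KDR and PDGFRA. The same libraries held 9 of 10 amnion and trophoblast markers, with CGB3 at 0. The amnion and trophoblast markers summed to 6535 and 7276 CPM there, against 15.5 to 61.6 CPM in the other groups.

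The finding that turns on a sequence is the choice between a pair of exons of FGFR2, and the exon used by most FGFR2 reads in mesoderm is shown here. Both exons encode the second part of the third immunoglobulin-like domain, which contacts the ligand, and a transcript normally uses one or the other. Exon IIIb is the form known from epithelia, where it binds FGF7 and FGF10, and exon IIIc is the form known from mesenchyme, where it binds FGF2 and FGF4 among others. On GRCh38, from GENCODE 29, the IIIb exon lies at chr10:121518682-121518829 on the minus strand, is 148 nt long and is coding. Capitals mark the exon, and the 12 lower-case letters at each end belong to the exons before and after it, which both forms share.
FGFR2 IIIb: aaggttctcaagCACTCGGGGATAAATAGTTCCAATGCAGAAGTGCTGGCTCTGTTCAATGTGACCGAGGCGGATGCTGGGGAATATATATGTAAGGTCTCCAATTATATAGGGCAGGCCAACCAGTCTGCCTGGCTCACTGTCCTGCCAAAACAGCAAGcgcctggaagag

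FGF17, a secreted FGF of the FGF8 subfamily, was the ligand with the most reads and was found almost entirely in endoderm. It had 792 and 776 reads there (1353 and 1324 CPM), 1 and 0 reads in hPSC, 1 and 0 in ectoderm, and none in either mesoderm library. The endoderm libraries stood apart from all 6 others. FGF17 rose in endoderm against hPSC (adjusted p = 1.09e-07, edgeR quasi-likelihood test over 10843 genes with Benjamini-Hochberg adjustment, as for every adjusted p on gene level). The ratio of the pooled levels was 1447 (95% interval 259 to 57191), a wide interval because hPSC had 1 read in all. Endoderm was at least 231-fold higher than mesoderm, where a count of 0 was set to 3 reads per library. In bulk RNA, more cells that use a gene and more RNA per cell cannot be told apart.

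The FGF17 gene lies at chr8:22042389-22048809 on the plus strand. Its endoderm reads fell on 2 main transcripts of 1751 and 1715 nt, both known, which differ by an exon of 178 or 145 nt and by a few bases at their ends. The exon that is longer by 33 nt was used in 485 of 782 reads (62.0%) in one endoderm library and 435 of 768 (56.6%) in the other.

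FGF8, the nearest relative of FGF17 among the ligands and a signal of the neural plate and of gastrulation, was found at a low level in ectoderm and endoderm. It had 15 and 11 reads in ectoderm (12.7 and 11.4 CPM), 4 and 2 in endoderm (6.83 and 3.41 CPM) and none in the hPSC and mesoderm libraries. Ectoderm was at least 2.17-fold higher than hPSC and at least 2.07-fold higher than mesoderm, while the ratio of ectoderm to endoderm was 2.36 (95% interval 0.951 to 7.02). The FGF8 gene (chr10:101769849-101776771, minus strand) showed the same kind of 33-nt choice, with 17 of 26 ectoderm reads on the longer exon (65.4%, 95% exact binomial interval 44.3 to 82.8%). An exon of 87 nt was included in 11 of 23 ectoderm reads and in 2 of 6 endoderm reads.

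FGF2, the ligand that keeps hPSC undifferentiated in culture, had 6 and 4 reads in hPSC (11.6 and 7.12 CPM) and 14 and 20 in ectoderm (11.9 and 20.7 CPM). Neither endoderm nor mesoderm had a read. The 2 ectoderm values lay just above the 2 hPSC values, with a ratio of pooled levels of 1.71 (95% interval 0.827 to 3.88). Endoderm was at least 1.82-fold and mesoderm at least 1.61-fold lower than hPSC. In mesoderm, whose medium held FGF2 protein, 9 and 2 further reads lay in transcripts listed under FGF2 but not named for it, and these are not counted here. All named FGF2 reads came from 1 known transcript of 6801 nt (chr4:122826682-122898236, plus strand).

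FGF19, a hormone-like FGF that needs a Klotho co-receptor for full binding, had 20 and 8 reads in hPSC (38.5 and 14.2 CPM) and from 0 to 2 reads in each other library. The 2 hPSC libraries stood above all the rest. The pooled level was 18.5 times lower in ectoderm (95% interval 5.73 to 95.3), 15.2 times lower in endoderm (3.83 to 131) and 26.8 times lower in mesoderm (4.43 to 1096) than in hPSC. FGF4, a ligand of early embryonic cells that lies close to FGF19 (chr11:69771016-69775341, against chr11:69698232-69704159), had 3 reads in 1 hPSC library and 3 in 1 endoderm library, and none elsewhere. These levels were at the limit of the depth, and no difference in FGF4 was detectable.

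FGF2, FGF4, FGF8 and FGF19 did not pass the filter on low counts, so these 4 have no test in the fit over all genes. Without the filter, FGF8 and FGF19 differed between ectoderm and hPSC (edgeR adjusted p = 0.00148 and 1.11e-07), whereas FGF2 (0.552) and FGF4 (0.136) missed the threshold in that comparison. In the same unfiltered fit FGF2 differed from hPSC in endoderm (edgeR adjusted p = 0.0180) and mesoderm (0.00527), and FGF19 in endoderm (0.00111) and mesoderm (1.38e-05). FGF8 passed narrowly in endoderm (edgeR adjusted p = 0.0497), but its mean of 5.12 CPM there lay under the limits of 5.78 and 5.34 CPM in hPSC. So no difference of FGF8 between endoderm and hPSC is drawn from it. The unfiltered fit could give far smaller adjusted p, as for FGF17 in endoderm (edgeR 2.13e-68 against 1.09e-07 with the filter). Its values for genes with so few reads are to be read with caution.

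FGF13 belongs to the intracellular FGFs, which act inside the cell on sodium channels and microtubules and do not signal through FGFR kinases in the usual way. Of the 6 ligands, FGF13 alone had reads in every library. The levels were 156 and 30.2 CPM in hPSC, 40.6 and 52.7 CPM in ectoderm, 58.1 and 23.9 CPM in endoderm, and 20.7 and 7.94 CPM in mesoderm. The hPSC values spanned those of ectoderm, and both mesoderm values lay below all others. FGF13 fell by 2.82 on the log2 scale in mesoderm against hPSC (SE 0.64, edgeR adjusted p = 0.00302), a call lost without mesoderm replicate 2 (0.0973). With single libraries left out the log2 change in mesoderm ran from -3.67 (without mesoderm replicate 1) to -1.45 (without hPSC replicate 1). The log2 change in ectoderm was -1.34 (SE 0.50, edgeR adjusted p = 0.0353), a call lost in 8 of 16 alternatives, among them DESeq2 and scaling by library totals. Without hPSC replicate 1, whose SOX2 level was also the higher, the change in ectoderm was 0.03. In endoderm the log2 change was -0.77 (SE 0.53, edgeR adjusted p = 0.308) and, without hPSC replicate 2, -1.43 (0.00165), but 0.60 without hPSC replicate 1. Endoderm exceeded mesoderm (log2 fold change 2.05, SE 0.68, edgeR adjusted p = 0.0223), though not without endoderm replicate 1 (0.258) or mesoderm replicate 2 (0.218). From 83.3 to 98.0% of FGF13 reads per group lay on 1 known transcript, and the gene is at chrX:138614728-139205101 on the minus strand.

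**Figure D1:**
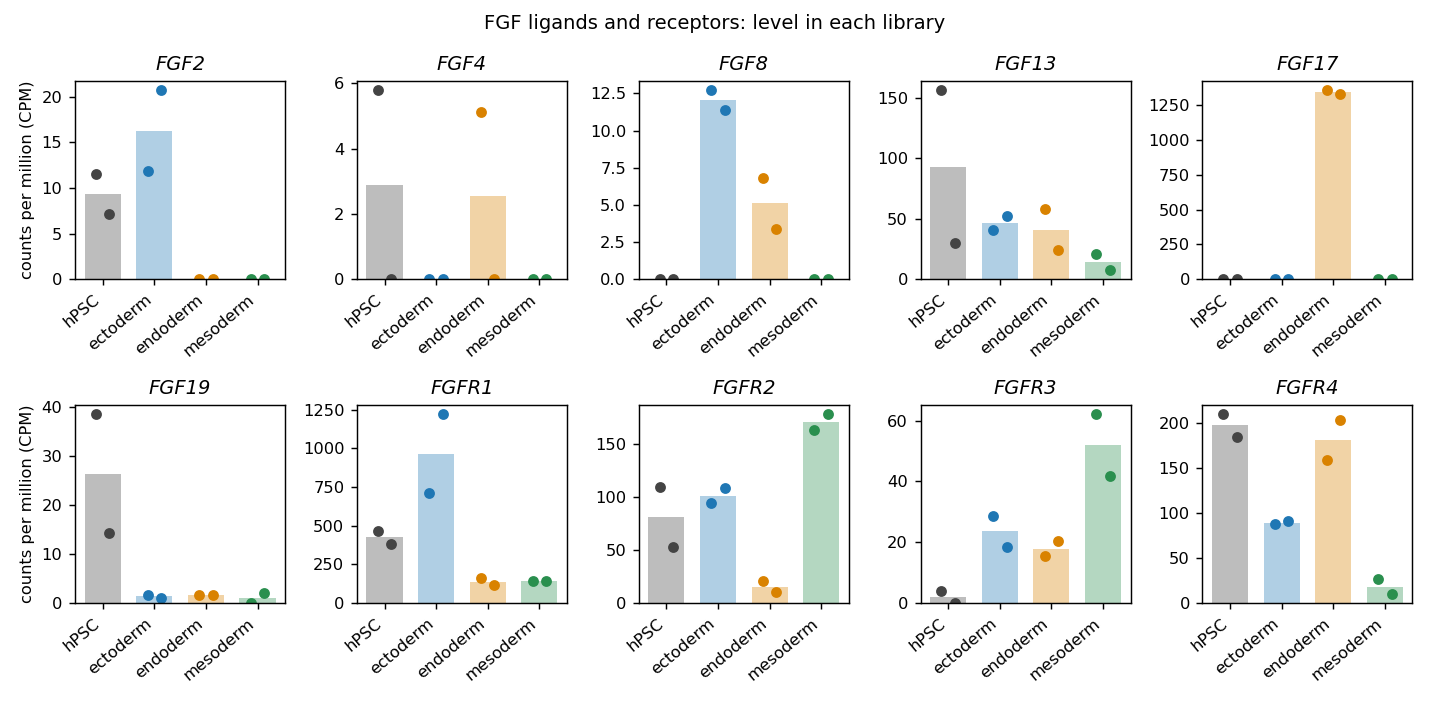
Level of each ligand and receptor gene in CPM (reads per 1e+06 counted, linear axis from 0, a separate scale for each gene). Points are the 2 libraries of a group and bars are their mean. FGF17 stands at 1353 and 1324 CPM in endoderm and near 0 elsewhere, FGFR1 is highest in ectoderm, and FGFR2 and FGFR3 are highest in mesoderm.

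FGFR1, the receptor most used by mesenchymal and neural progenitors, was highest in ectoderm. It stood at 464 and 384 CPM in hPSC, 711 and 1220.0 CPM in ectoderm, 159 and 119 CPM in endoderm, and 143 CPM in both mesoderm libraries. Both ectoderm values lay above both hPSC values, which lay above those of the other layers, and the endoderm and mesoderm values overlapped. FGFR1 fell in mesoderm (log2 fold change -1.80, SE 0.33, edgeR adjusted p = 0.000681) and in endoderm (-1.27, SE 0.33, 0.00918) against hPSC. The endoderm call was lost without either endoderm library (0.0519 and 0.119). In ectoderm the log2 fold change against hPSC was 0.76 (SE 0.31, edgeR adjusted p = 0.0516), just outside the threshold. It passed in 9 of 16 alternatives, among them scaling by library totals (1.19, 0.00565). It was 0.12 once the trend of counts on transcript length was removed. Ectoderm exceeded endoderm (log2 fold change 2.04, SE 0.33, edgeR adjusted p = 7.64e-05) and mesoderm (2.56, SE 0.33, 3.11e-05), while the difference of endoderm from mesoderm was 0.53 (SE 0.34, 0.209). The fold changes come from a fit with TMM scaling, so they can differ from the ratio of CPM values.

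FGFR2 was highest in mesoderm and lowest in endoderm. It stood at 110 and 53.4 CPM in hPSC, 94.8 and 109 CPM in ectoderm, 20.5 and 10.2 CPM in endoderm, and 164 and 179 CPM in mesoderm. The mesoderm values exceeded all others, the endoderm values lay below all others, and the hPSC and ectoderm values overlapped. FGFR2 fell in endoderm against hPSC (log2 fold change -2.03, SE 0.42, edgeR adjusted p = 0.00231), a call lost without endoderm replicate 2 (0.0526). The change in mesoderm was 0.87 (SE 0.33, edgeR adjusted p = 0.0509) and passed in 5 of 16 alternatives. In ectoderm it was -0.07 (SE 0.33, 0.877). Between layers, endoderm lay below mesoderm (log2 fold change -2.90, SE 0.40, edgeR adjusted p = 4.68e-05) and ectoderm above endoderm (1.96, SE 0.41, 0.000661). Ectoderm lay below mesoderm by a smaller margin (log2 fold change -0.94, SE 0.31, edgeR adjusted p = 0.0285), a call lost in 7 of 16 alternatives, including without any 1 of these 4 libraries (0.116 to 0.194).

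FGFR3, a receptor known for restraining cartilage growth, was nearly absent from hPSC and present in each layer. It had 2 and 0 reads in hPSC, 34 and 18 in ectoderm (28.8 and 18.6 CPM), 9 and 12 in endoderm (15.4 and 20.5 CPM) and 33 and 21 in mesoderm (62.1 and 41.7 CPM). Every library of a layer lay above both hPSC libraries, and ectoderm and endoderm overlapped. FGFR3 rose in ectoderm (edgeR adjusted p = 0.00412), in endoderm (0.00613) and in mesoderm (0.000219) against hPSC. The endoderm call was lost without endoderm replicate 2 (0.0537). The ratios of pooled levels were 13.1 (95% interval 3.45 to 111), 9.69 (2.37 to 85.2) and 28.2 (7.44 to 239). Ectoderm lay below mesoderm (log2 fold change -1.30, SE 0.39, edgeR adjusted p = 0.0172), a call lost in 5 of 15 alternatives, including without ectoderm replicate 2 (0.183), mesoderm replicate 1 (0.218) or mesoderm replicate 2 (0.0533). The log2 difference of endoderm from mesoderm was -0.96 (SE 0.45, 0.0921) and that of ectoderm from endoderm -0.34 (SE 0.47, 0.541).

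FGFR4, the receptor best known from liver, where FGF19 acts on it, was lowest in mesoderm. It stood at 210 and 185 CPM in hPSC, 88.1 and 91.0 CPM in ectoderm, 159 and 203 CPM in endoderm, and 26.4 and 9.92 CPM in mesoderm. The hPSC and endoderm values overlapped, both ectoderm values lay below them, and both mesoderm values lay lower still. FGFR4 fell in mesoderm (log2 fold change -3.65, SE 0.42, edgeR adjusted p = 9.21e-06) and in ectoderm (-1.56, SE 0.33, 0.00138), and its change in endoderm was 0.22 (SE 0.33, 0.672). Endoderm exceeded mesoderm (log2 fold change 3.87, SE 0.42, edgeR adjusted p = 4.68e-06), and ectoderm lay between them, below endoderm (-1.78, SE 0.33, 0.000292) and above mesoderm (2.09, SE 0.42, 0.00129). Each of these 5 calls on FGFR4 held in all 16 alternatives, and the change in mesoderm ran from -4.53 to -3.05 without mesoderm replicate 1 or 2. The part of the pluripotent markers, at 2114 and 1805 CPM in endoderm and mostly LIN28A and TDGF1, in the FGFR4 level there was not tested.

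**Figure D2:**
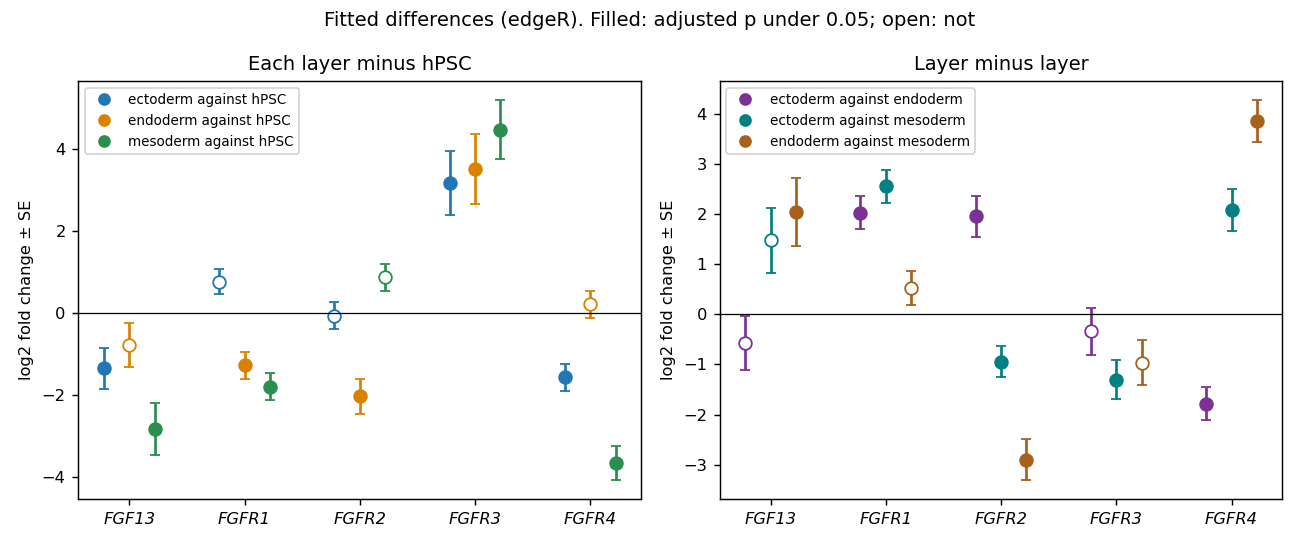
Fitted log2 fold changes (vertical axis, ± SE) of FGF13 and the 4 receptors, each layer against hPSC on the left and layer against layer on the right. Filled points have an adjusted p under 0.05 and open points do not. FGFR4 is lowest in mesoderm (-3.65) and FGFR3 is higher in all 3 layers than in hPSC.

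Of the 6 members that passed the filter, FGF17 did so only through its endoderm reads. Its lack of a call in comparisons without endoderm therefore carries no information. Counted over these 6, 1 was higher (FGFR3) and 2 were lower (FGF13, FGFR4) in ectoderm than in hPSC. In that comparison 48.7% of all genes tested were called, 23.8% higher and 24.8% lower. In endoderm 2 were higher (FGF17, FGFR3) and 2 lower (FGFR1, FGFR2), with 27.2% of all genes called, 13.4% higher and 13.8% lower. In mesoderm 1 was higher (FGFR3) and 3 were lower (FGF13, FGFR1, FGFR4), with 35.1% called, 16.9% higher and 18.2% lower. Between layers, 2 were higher and 2 lower in ectoderm than in endoderm, where 63% of all genes were called (33.1% higher and 29.9% lower). The same counts held in ectoderm against mesoderm, with 35.5% called (18.1% higher and 17.3% lower). In endoderm against mesoderm 3 were higher and 1 was lower, with 47.1% called (23.2% higher and 23.9% lower). The comparisons with hPSC share the hPSC libraries. All mesoderm values above come from the libraries rich in amnion and trophoblast markers (6535 and 7276 CPM), whose part in these results was not tested. Scaling by library totals moved the median log2 change of all genes from -0.01 to 0.40 in ectoderm, from -0.13 to -0.46 in endoderm and from 0.01 to 0.24 in mesoderm. No call named above changed its direction under this scaling, but some were lost. Those lost were FGF13 in ectoderm against hPSC and in endoderm against mesoderm, and FGFR2 and FGFR3 in ectoderm against mesoderm. Newly called were FGFR1 in ectoderm and FGFR2 in mesoderm against hPSC, and FGFR3 in endoderm against mesoderm.

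The receptors changed in make-up as well as in amount. The share of each receptor among all reads of FGFR1 to FGFR4 compares groups within 1 receptor, since recovery of reads by length was not corrected. FGFR1 made up 77.1 and 84.8% of receptor reads in ectoderm, 58.9 and 61.7% in hPSC, 44.9 and 33.8% in endoderm, and 36.2 and 38.3% in mesoderm. FGFR4 made up 44.9 and 57.5% in endoderm and 26.7 and 29.7% in hPSC, but 9.54 and 6.33% in ectoderm and 6.67 and 2.66% in mesoderm. FGFR2 made up 41.4 and 47.9% in mesoderm and from 2.90 to 13.9% in the other libraries. FGFR3 reached 15.7 and 11.2% in mesoderm and at most 5.80% elsewhere.

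Each receptor's share differed between the 4 groups in an exact permutation test based on F, two-sided by construction, over all ways of dividing the 8 libraries into 4 pairs. The exact permutation p was 0.0286 for FGFR1 and FGFR2, 0.0190 for FGFR4 and 0.00952 for FGFR3, the last being the smallest this design allows. All 4 had an adjusted permutation p of 0.0286 over the 4 tests. The shares sum to 100% in a library, so these tests are not independent.

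**Figure D3:**
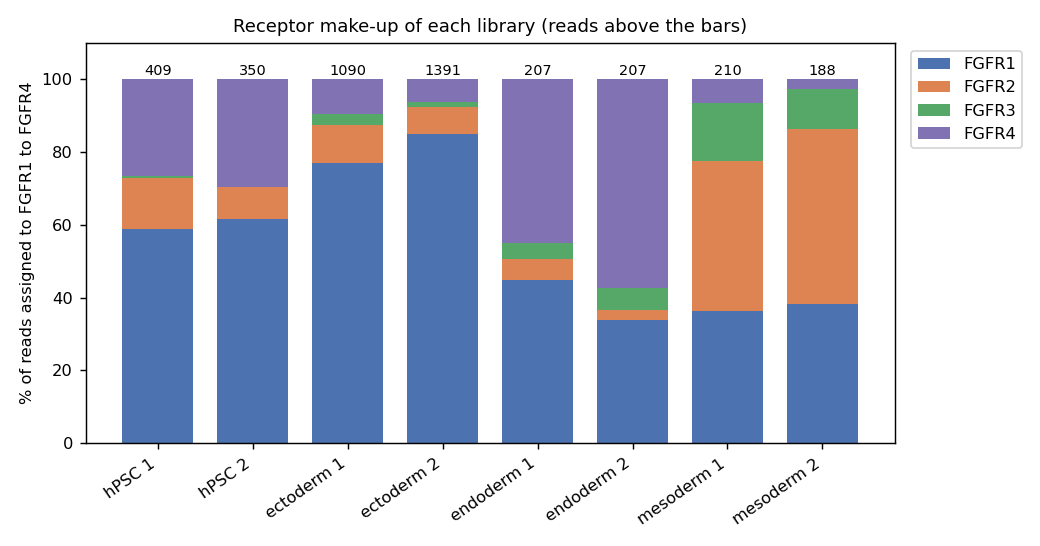
Percent of the reads assigned to FGFR1, FGFR2, FGFR3 and FGFR4 in each of the 8 libraries (vertical axis, stacked to 100%), with the number of receptor reads above each bar. FGFR1 takes 77.1 and 84.8% in ectoderm, FGFR4 44.9 and 57.5% in endoderm, and FGFR2 41.4 and 47.9% in mesoderm.

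FGFR2 used exon IIIb in mesoderm and mostly exon IIIc in hPSC and ectoderm. Of the reads whose transcript holds either exon, hPSC had 18 with IIIc, 3 with IIIb and 4 with both in one library and 10, 3 and 2 in the other. Ectoderm had 48, 21 and 5, and 37, 17 and 11. Mesoderm had 8, 54 and 3, and 12, 45 and 6. Endoderm had only 6 and 5 such reads, 10 with IIIc and 1 with IIIb. Counting transcripts with both exons as IIIc, the IIIc share was 88.0 and 80.0% in hPSC, 71.6 and 73.8% in ectoderm, and 16.9 and 28.6% in mesoderm. Both mesoderm values lay below those of hPSC and ectoderm, and their 95% exact binomial intervals ended at 28.3 and 41.3%, below the lowest of the lower bounds in hPSC and ectoderm (51.9%).

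The IIIb and IIIc forms were tested within the whole transcript table, with FGFR2 transcripts that hold neither exon left out. Relative to both forms together, the IIIb form rose in mesoderm against hPSC (log2 change 1.61, edgeR diffSpliceDGE adjusted p = 0.000271 over 2635 genes). It was lower in ectoderm than in mesoderm (-1.03, diffSpliceDGE adjusted p = 0.000412) and lower in endoderm than in mesoderm (-1.998, 0.00301). The endoderm call rests on 11 endoderm reads and was lost without endoderm replicate 2 (0.0884). Ectoderm against hPSC gave 0.58 (diffSpliceDGE adjusted p = 0.476). The exact permutation test over the 4 groups was left out because endoderm had under 10 such reads per library. Over hPSC, ectoderm and mesoderm the exact permutation p was 0.0667, the smallest that 6 libraries in 3 pairs allow. By the junction with the exon before in place of the whole exon, the mean IIIc share was 74.7% in hPSC, 64.1% in ectoderm and 19.5% in mesoderm.

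The part of the amnion and trophoblast markers of these 2 libraries in FGFR2 exon use was not tested either. A known IIIb transcript of 4641 nt took 46.9% of FGFR2 reads in mesoderm, 14.3% in ectoderm, 5.75% in hPSC and none in endoderm. The matching IIIc transcript of 4638 nt took 3.95%, 16.6%, 10.3% and 5.56%.

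**Figure D4:**
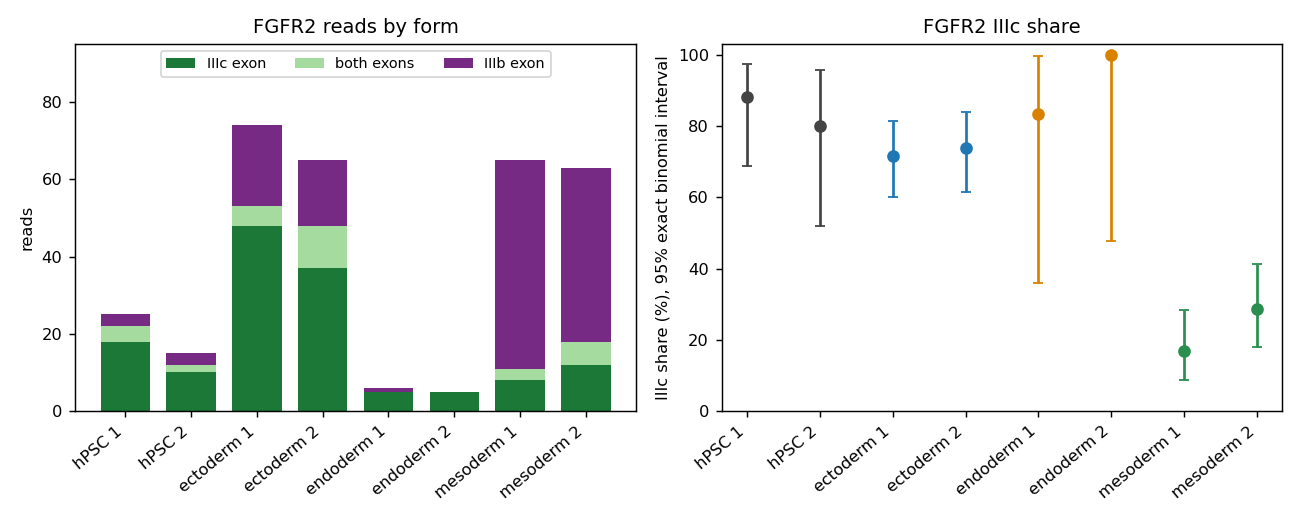
FGFR2 reads by exon form in each library (left, stacked counts) and the IIIc share in percent with its 95% exact binomial interval (right), transcripts with both exons counted as IIIc. The 2 mesoderm libraries stand at 16.9 and 28.6%, and the endoderm libraries have 6 and 5 reads only.

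FGFR1 and FGFR3 showed only the IIIc form wherever the whole exon was assembled. For FGFR1 all such reads held IIIc: 1078 from ectoderm, 228 from hPSC, 84 from endoderm and 68 from mesoderm. No FGFR1 transcript with the IIIb exon was assembled, and reads were counted per assembled transcript. The count of 0 for IIIb was therefore fixed by the assembly and sets no upper limit on the IIIb share. For FGFR3 the IIIc numbers in the same order were 39, 2, 6 and 26 reads, and no transcript with IIIb as a separate exon was assembled. By the junction with the exon before, 1 of 40 FGFR3 reads in ectoderm, 4 of 10 in endoderm and 7 of 33 in mesoderm entered the IIIb exon. They came from 1 assembled transcript that keeps the intron between IIIb and IIIc and so runs through both exons. FGFR4 has a single form of this domain, so it has no such choice.

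Other alternative parts of FGFR1 (chr8:38411138-38469017, minus strand) varied less between groups. The 267-nt exon of the first immunoglobulin-like domain was included in 92.9 and 92.2% of endoderm reads, 98.9 and 98.5% of hPSC reads, 99.0 and 98.7% of ectoderm reads, and 100% of those of each mesoderm library. Both endoderm values lay below the rest, with 8 of 107 reads skipping the exon (7.48%). The exact permutation p over the 4 groups was 0.0190, without setting endoderm against the rest. The adjusted permutation p over the 4 FGFR1 events tested was 0.0762, outside the threshold of 0.05. Next to the acid box, an acidic stretch after that domain, a 6-nt longer exon end was used in 48.2 and 61.5% of endoderm reads and in 22.9 to 44.0% elsewhere (adjusted permutation p = 0.114). The longer juxtamembrane donor, which adds the amino acids V and T where FRS2 docks, was used in 82.6 to 91.5% of reads (adjusted permutation p = 0.114).

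The intron between exon IIIc and the transmembrane exon of FGFR1 was kept in many reads and its share varied widely between repeats. It was kept in 36 of 190 reads of one hPSC library and 71 of 145 of the other, and in 155 of 713 and 310 of 830 reads in ectoderm. In endoderm it was kept in 18 of 59 and 11 of 54 reads, and in mesoderm in 26 of 60 and 20 of 54 (adjusted permutation p = 0.695 over the 4 events).

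In FGFR2 (chr10:121478318-121598458, minus strand), the exon of the first immunoglobulin-like domain was included in 97.6 and 96.5% of mesoderm reads and from 81.5 to 100% elsewhere. The VT donor of FGFR2 was used in 83.1 and 78.5% of mesoderm reads, 79.2 and 85.5% in ectoderm and 73.1 and 76.5% in hPSC. In FGFR4 (chr5:177086837-177098144, plus strand) the exon of its first domain was included in 91.3 to 100% of reads. These shares had a library with too few reads for the exact test or were given as description only.

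The test of transcript choice over all transcripts took in FGF17, FGFR1 and FGFR4, which had at least 2 tested transcripts. FGF17 had 1 read in hPSC, 1 in ectoderm and none in mesoderm, so its test carries no information. Neither FGFR1 nor FGFR4 was called against hPSC in any layer, with diffSpliceDGE adjusted p from 0.348 to 1, while 5.66% of 2634 genes were called in ectoderm, 5.05% in endoderm and 7.02% in mesoderm. Their smallest unadjusted p was 0.0793, for FGFR4 in endoderm. The main FGFR1 transcript, of 18 exons and 5702 nt, took 7.98% of FGFR1 reads in endoderm and 22.1% in hPSC, 24.3% in mesoderm and 26.8% in ectoderm. By library it took 32.0 and 11.1% in hPSC and 10.8 and 4.29% in endoderm, so the hPSC repeats lay far apart and one was close to endoderm. In FGFR4 a known transcript of 3126 nt took 59.4% of reads in ectoderm, 54.9% in hPSC, 42.1% in mesoderm and 37.3% in endoderm. In FGFR3 (chr4:1793293-1808871, plus strand) the known transcript of 4301 nt took 53.8% in ectoderm, 33.3% in mesoderm and 4.76% of 21 reads in endoderm.

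Among genes downstream of the receptors, many feedback and target genes were lower in mesoderm and in ectoderm than in hPSC. Of its 20 genes 17 were tested, and 9 fell and 3 rose in mesoderm, 8 fell and 3 rose in ectoderm, and 5 fell and 1 rose in endoderm. Over all genes tested, 18.2% fell and 16.9% rose in mesoderm, 24.8% and 23.8% in ectoderm, and 13.8% and 13.4% in endoderm. DESeq2 called fewer of the list, with 7 lower and 1 higher in mesoderm, 6 and 3 in ectoderm, and 2 and 1 in endoderm. The list's median log2 change was -1.99 in mesoderm, -1.10 in ectoderm and 0.25 in endoderm. ETV4, a transcription factor that FGF signalling induces, stood at 295 and 272 CPM in hPSC, 101 and 147 CPM in endoderm, 33.03 and 33.09 CPM in ectoderm, and 9.41 and 11.9 CPM in mesoderm. It fell in all 3 layers, with a log2 fold change of -4.95 in mesoderm (SE 0.41, edgeR adjusted p = 3.96e-07), -3.52 in ectoderm (SE 0.34, 1.70e-06) and -0.86 in endoderm (SE 0.31, 0.0481).

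ETV5, its close relative, fell in mesoderm (log2 fold change -3.57, edgeR adjusted p = 6.83e-06) and ectoderm (-1.22, 0.00323), as did SPRY4, a Sprouty inhibitor (-3.24 and -2.93), and DUSP6, an ERK phosphatase (-3.64 and -1.10). In endoderm the log2 changes of ETV5, SPRY4 and DUSP6 were 0.25, 0.50 and 0.68, and none passed the test. These are the endoderm libraries with pluripotent markers, mostly LIN28A and TDGF1, at 2114 and 1805 CPM, whose part in these values was not tested. MYC fell in all 3 layers (-3.44, -2.06 and -2.33 in ectoderm, endoderm and mesoderm). Members of the list that rose were DUSP4 in endoderm (2.40, edgeR adjusted p = 0.000106), SPRY2 in mesoderm (2.84, 0.00037), and CCND1, IL17RD and SPRED1 in ectoderm (2.00, 1.37 and 2.02). DUSP5 and PHLDA1 rose in mesoderm (1.37 and 1.16).

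SPRED2 was not called against hPSC in any layer, and 3 of the 20 genes were not tested. SPRY1 and ETV1 fell in endoderm (-1.82 and -2.06) and in mesoderm (-2.50 and -4.24). FOSL1, a member of the AP-1 family, fell in ectoderm (-3.64) and mesoderm (-1.99), and FOS and PHLDA1 fell in ectoderm (-1.70 and -2.63). CCND1, or cyclin D1, fell in endoderm (-1.77) and DUSP4 in mesoderm (-2.08). The hPSC repeats lay far apart for CCND1 (169 and 46.3 CPM), PHLDA1 (82.8 and 17.8 CPM) and FOSL1 (57.8 and 17.8 CPM).

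Of 10 adaptors that link the receptor to RAS, 8 were tested: 3 rose and 1 fell in ectoderm, 2 rose and 2 fell in mesoderm, and none was called in endoderm by edgeR. Over all genes 48.7% were called in ectoderm, 35.1% in mesoderm and 27.2% in endoderm, so the share of adaptors called in ectoderm and mesoderm was near the background and is no result about adaptors. At an unadjusted p under 0.05, 2 adaptors were higher and 1 was lower in endoderm by edgeR, and DESeq2 called 1 higher. FRS2 rose in ectoderm (7.70 and 7.12 CPM in hPSC to 80.4 and 104.4 CPM, log2 fold change 3.19, edgeR adjusted p = 0.000114) and in mesoderm (37.7 and 57.6 CPM, 2.42, 0.00268). GAB1 rose in the same layers (2.16 and 2.73), PTPN11, the phosphatase SHP2, rose in ectoderm (2.56), and PLCG1 fell in mesoderm (-3.31). SHC1 fell in mesoderm (-1.48) and ectoderm (-0.87). Of 12 genes of the RAS and MAPK cascade 11 were tested: 5 rose and 1 fell in ectoderm, 1 fell and none rose in endoderm, and 4 rose and none fell in mesoderm. At an unadjusted p under 0.05, edgeR had 1 higher in endoderm and 1 lower in mesoderm, and DESeq2 called neither. DESeq2 called 4 higher and 1 lower in ectoderm, but 1 higher and none lower in mesoderm. Over both directions, the shares called by edgeR in ectoderm and mesoderm were near those of all genes here too. By direction, 5 of 11 rose and 1 fell in ectoderm, against 23.8% and 24.8% of all genes. In mesoderm 4 of 11 rose and none fell, against 16.9% and 18.2% of all genes. Those that rose in ectoderm included BRAF, NF1, RASA1 and NRAS (log2 fold changes 1.33, 1.65, 2.28 and 0.93), while ARAF fell there (-1.09). MAP2K1, MAP2K2, BRAF and RASA1 rose in mesoderm (1.43, 1.32, 1.27 and 1.89). The hPSC repeats lay far apart for MAP2K1 (63.5 and 21.4 CPM), MAP2K2 (88.6 and 21.4 CPM) and PTPN11 (44.3 and 14.2 CPM). Mean transcript length per read was longer in ectoderm (4406 and 4650 nt) and mesoderm (3765 and 3840 nt) than in hPSC (3298 and 3114 nt). The part of transcript length in the changes of these adaptor and cascade genes was not tested.

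Of 9 co-receptors and binding proteins 3 could be tested. FLRT3, a membrane protein that binds FGF receptors, had 1 and 0 reads in hPSC and stood at 39.0 and 39.3 CPM in ectoderm, 13.7 and 11.9 CPM in endoderm and 237 and 208 CPM in mesoderm, and it rose in all 3 layers (edgeR adjusted p = 0.000104, 0.00361 and 2e-07). FGFRL1, a receptor without a kinase domain, rose in endoderm (1.93 and 8.90 CPM in hPSC to 61.5 and 51.2 CPM, log2 fold change 3.63, edgeR adjusted p = 0.00014). FGFBP3, a carrier protein for FGFs, fell in mesoderm (-4.91, 0.00253), from 214 and 10.7 CPM in hPSC, so the hPSC repeats differed widely. Among 16 other FGF ligands only FGF11, an intracellular FGF, passed the filter. It fell in ectoderm (-2.21, 0.00215). Reads of 4 ligands, FGF3, FGF5, FGF6 and FGF9, were found in no library.

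The named genes whose levels followed each member most closely over the 8 libraries are given as a description, with Pearson's r, since libraries of 1 group are alike by design and neighbours were searched among 6784 to 9411 genes. They were NR0B1 and GATA4 for FGF17 (0.995 for both), MMP16 and CLCN4 for FGFR1 (0.993 and 0.979), and KCTD20 and PDSS1 for FGFR2 (0.993 and 0.992). For FGFR3 they were CREM and MAU2 (0.989 and 0.983), for FGFR4 L3MBTL2 and ETV5 (0.993 and 0.980), and for FGF13 KIF3C and KLHL25 (0.971 and 0.959).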

How the data were processed

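RNA of 8 libraries in 4 groups was measured by PacBio long-read sequencing. The authors deposited raw counts of reads per assembled transcript over the combined assembly, which were used here, and CPM tables, which were not. The 2 endoderm columns the authors deposited are recorded as estimated counts only because of their column names. They held whole raw counts like the others, and nothing was rounded. Per the submitters' processing notes, minimap2 and StringTie were used on GRCh38. The counter, annotation release and use of strand are not given in the sources used here, so reads of a gene and of an antisense partner cannot be told apart.

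Counts of transcripts carrying the gene's name were summed per gene. The gene test was edgeR's (version 4.0.16, under R 4.3.3; TMM scaling, filterByExpr with a minimum count of 10, quasi-likelihood test, all 8 libraries, group as the only term, Benjamini-Hochberg at 0.05). This left 10843 genes, with total counts of 503840 to 1180888 per library. Transcript choice was tested with diffSpliceDGE. FGFR2 transcripts were pooled into IIIb and IIIc forms for a test added after the data were seen, because 1 FGFR2 transcript alone passed the filter. Exon forms were read from assembled exons, with GENCODE 29 for FGFR2 coordinates. Shares were compared by exact permutation, and their exact binomial intervals were computed with SciPy 1.17.1. Ratios of pooled levels carry exact conditional 95% intervals. The fits over many genes were tested on simulated data. Alternatives were DESeq2 1.42.0, other scalings and filters, a replicate block, removal of the length trend, and each library left out. The text names every member, pathway genes called with a log2 change of at least 1 against hPSC, transcripts with at least 10% of a member's reads in a group of 20 or more, and the 2 most alike genes per member. The members and lists were chosen with earlier results of these data known. Some items of these lists and 1 of the exon sequences are not reported here.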

Additional observations from a re-analysis of the deposited data

Results flagged for a closer look

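Reads in transcripts that the assembly lists under a member but does not name for it, and which were left out of the counts above, had over 3 reads in both libraries of a layer, and a higher CPM there than in both hPSC libraries, in 3 cases. For FGF2 they averaged 16.8 CPM in ectoderm (19 and 17 reads) against 9.63 and 3.56 CPM in hPSC (5 and 2 reads). For FGF13 they averaged 5.88 CPM in ectoderm (9 and 4 reads), with 1 read in each hPSC library. For FGFR2 they averaged 17.5 CPM in mesoderm (8 and 10 reads) against 9.63 and 14.2 CPM in hPSC (5 and 8 reads). In endoderm FGF13 also had more, but with 3 reads in 1 library (3 and 6 reads, 5.12 and 10.2 CPM). For FGF2 in mesoderm (16.9 and 3.97 CPM) and FGFR1 in ectoderm (5.08 and 7.24 CPM against 1.93 and 5.34 CPM in hPSC), 1 library lay within the hPSC values. None of these differences was tested.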

How the results depend on the processing

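Of 570 values of the 36 member fold changes under the alternatives, 516 kept their side of the threshold, 29 were no longer called, 24 were newly called and 1 called value turned. Of the 516, 15 had the opposite sign to the reported value and were called in neither fit, so that 16 values in 8 results changed sign. The called value was FGF13 in ectoderm against hPSC (log2 fold change 0.0251 without hPSC replicate 1, range over single libraries left out -2.01 to 0.0251). Without a filter on low counts, 6 members were called in ectoderm and 7 in endoderm against hPSC. In ectoderm against mesoderm, 2 were called by DESeq2 and 2 with library totals. Over single libraries left out, members called were from 1 to 5 in endoderm against hPSC (lowest without endoderm replicate 2) and from 2 to 5 in ectoderm against mesoderm (lowest without ectoderm replicate 2, mesoderm replicate 1 or mesoderm replicate 2). The FGFR2 form test of endoderm against mesoderm had an adjusted p from 0.000646 to 0.0884.

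Over all genes, a minimum count of 30 tested fewer genes and called 3406 in ectoderm and 2535 in mesoderm against hPSC and 4352 in ectoderm against endoderm, in place of 5280, 3805 and 6836. DESeq2 called 3354, 1831 and 2315 in ectoderm, endoderm and mesoderm against hPSC and 2010 in ectoderm against mesoderm (edgeR 2952 in endoderm and 3848 in the last). In endoderm DESeq2 had 1066 higher and 765 lower, edgeR 1456 and 1496. The cause was not tested. With single libraries left out, genes called against hPSC were from 3353 to 5752 in ectoderm, 1477 to 3864 in endoderm and 1975 to 4872 in mesoderm, from 1852 to 5233 in ectoderm against mesoderm and from 3338 to 6088 in endoderm against mesoderm. Genes with a changed transcript choice were from 11 to 280, 31 to 215 and 46 to 288 against hPSC, each lowest without replicate 2 of that layer.

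The spread of the IIIc share of FGFR2 between groups, 61.3 percentage points, was 48.2 with only transcripts matching a reference transcript, where hPSC had under 10 reads and gave no value. The FGFR3 IIIc share had too few reads for any alternative. The labels do not say whether samples with the same repeat number belong together. The correlation of repeat differences between groups ran from -0.03 to 0.13. A replicate block lowered the genes with a changed transcript choice in ectoderm from 149 to 99, gave 5105 genes called in ectoderm against hPSC, and changed 1 member call, FGF13 in ectoderm against mesoderm (1.63, edgeR adjusted p = 0.0327).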
